A study of Rattus norvegicus with 16 samples.

Results

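Gene expression in the right hippocampus was compared between rats 15 days after an infusion of iron chloride into the right amygdala and rats killed on the same day after an infusion of saline. The comparison held 8 of the study's 16 arrays, 4 in each group, chosen by their labels, with 1 array for each animal. All animals were male Wistar rats that had been fitted with a guide cannula at the right amygdaloid body at 5 weeks of age and infused 5 days after that operation. The Fe day 15 rats received 1 µl of 100 mM FeCl3 in saline at pH 2.2, and the control rats 1 µl of saline at pH 2.2, so that cannula, anaesthesia, volume and acidity were shared. Per the series text, the iron rats had recurrent seizures whose rate was not measured, and no seizure activity was seen in the controls. That text places day 15 in the sub-chronic phase, when spike discharges between seizures had become more regular in the amygdala opposite the infusion. The other 8 arrays, from rats killed 5 and 30 days after the same iron infusion, entered the estimate of the spread and 2 comparisons with Fe day 15. Of 41012 distinct probes, 30026 were kept because they stood well above background on every array of the control or the Fe day 15 group. They gave 27337 features, which were 9430 genes with a symbol (34.5%) and 17907 probes without one.

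Ferric iron in brain tissue catalyses the formation of free radicals and the breakdown of membrane lipids, and its injection is a model of the epilepsy that can follow bleeding after head injury. The hippocampus receives input from the amygdala and is drawn into limbic seizures. Its neurons answer firing within minutes by transcribing immediate early genes, mostly transcription factors, and over hours by making growth factors and neuropeptides. Sustained seizures can also bring chaperones, glial genes and the birth of granule cells in the dentate gyrus into play.

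Values are log2 of the processed signal minus the 75th percentile of the array, and differences are Fe day 15 minus control, so that a negative one is lower in Fe day 15 and 1 is a doubling. The 75th percentile itself lay between 553 and 864 intensity units in the controls and between 596 and 873 in Fe day 15, and 74.2% to 78.4% of the transcript spots on these 8 arrays were well above background. Of the markers tested, 9 of 9 genes of dentate granule cells and 18 of 18 of the CA fields were above background on all 8 arrays. For the choroid plexus and the meninges, tissues that adjoin the hippocampus in a dissection, it was 14 of 16 and 25 of 25. So were 26397 of the 27337 features. Tested genes had already passed the background filter, so these counts cannot test the label hippocampus.

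Fe day 15 replicate 4 stood apart from the other 7 arrays. On it, 257 features were more than 1 above the highest of the other 7 and 88 more than 1 below the lowest. On Fe day 15 replicate 1 these counts were 119 and 25, and on the other 6 arrays they were 11 to 33 and 10 to 24. The median SD of a feature within the group was 0.125 in the controls and 0.177 in Fe day 15, and 67.9% of features varied more in Fe day 15. Of 234 named genes, the difference from the controls shrank by more than 1.5 times in 40 and turned sign in 4 without replicate 4, and shrank in 14 without replicate 1, against 1 to 8 when any 1 of the other 6 arrays was left out. Values without these 2 arrays stand beside the genes and lists on which they were farthest from the rest. The layout of the slides also followed the groups. All 4 control arrays were in the first position of a slide and all 4 Fe day 15 arrays in the second, and 3 slides held 1 array of each group.

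With limma, a linear model of all 16 arrays, 0 of 27337 features passed a Benjamini-Hochberg adjusted p of 0.05 (0%). The adjusted p was under 0.1 for 24 features (0.0878%), of which 7 were higher and 17 lower in Fe day 15 and 11 carried a gene symbol, and the lowest was 0.0742. At an unadjusted p under 0.05, 1412 features were higher (5.17%) and 1806 lower (6.61%). In the mean, whatever the p, 49.7% were higher. Counts of members within the lists below are to be read beside these shares. In 1121 features (4.1%) all 4 Fe values were above all 4 control values, and in 1615 (5.91%) all were below. The median difference over all features was -0.00117, and the median standard error of a difference was 0.132. No single gene below is therefore a call over all genes, and its adjusted p is given where the result turns on it. Without Fe day 15 replicate 4, 10 features were called, 6 higher and 4 lower, and the lower count at an unadjusted p under 0.05 was 1184 in place of 1806. A fit that weights each array by its own scatter, in which replicate 4 had a weight of 0.468 and replicate 1 of 0.758, called 202 features, 89 higher and 113 lower. A fit of the 8 arrays alone called 2.

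**Figure D1:**
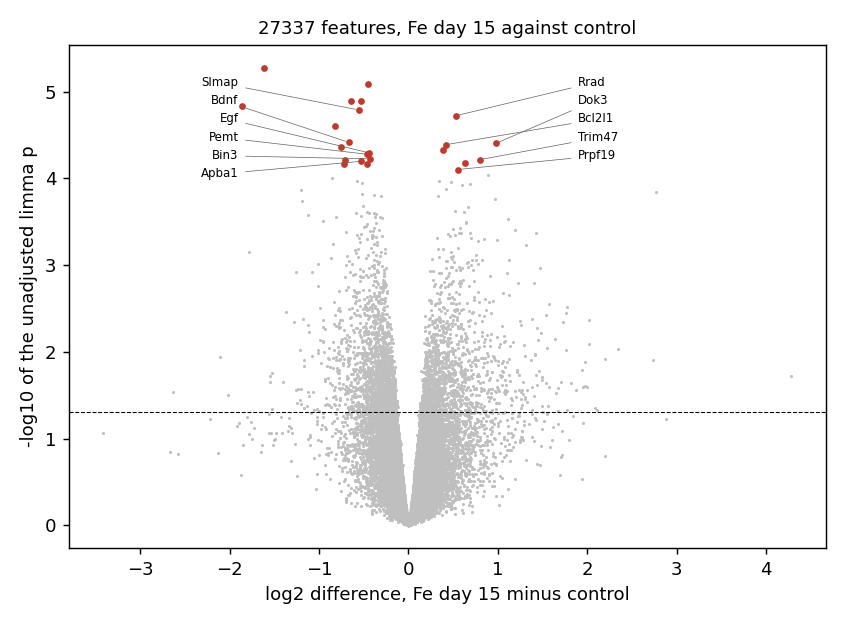
Log2 difference between Fe day 15 and control (horizontal axis) against -log10 of the unadjusted limma p (vertical axis) for 27337 features, with 4 arrays in each group. Red points are the 24 features with an adjusted p under 0.1, with symbols where known, and the dashed line is an unadjusted p of 0.05; 17 of the red points lie on the lower side.

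Immediate early genes were lower in Fe day 15. Of 33 tested members of a list of 39, 29 had a lower mean in Fe day 15 and 11 had an unadjusted p under 0.05, all of these lower, against 6.61% lower over all features. The median difference of the list was -0.34, where the median of all features was -0.00117. In bulk tissue, fewer cells of a type and less RNA per cell cannot be told apart. A score was computed for each list on each array, as the median of its members' log2 signals, each taken relative to that gene's mean in the controls. For immediate early genes it was -0.40, -0.34, -0.23 and -0.38 on Fe replicates 1 to 4 and -0.08 to 0.09 on the controls, so that all 4 iron arrays were below all 4 controls. On the 3 slides that held both groups, the Fe array was below its control neighbour, with score differences of -0.34, -0.30 and -0.31.

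The nuclear receptors of the Nr4a family, which act without a known ligand and are induced by firing, were lower at an unadjusted p under 0.05 in 2 of 3 members. The levels of Nr4a3 were 2.53, 2.35, 2.52 and 2.43 in the controls and 1.48, 1.89, 2.08 and 1.59 in Fe day 15, with no overlap. Its difference was -0.70 ± 0.15 (SE, n = 4 per group, limma adjusted p = 0.146). For Nr4a1 the controls stood at 4.45, 4.37, 4.12 and 4.25 and the Fe arrays at 3.40, 3.13, 3.78 and 3.02, a difference of -0.96 ± 0.31. Nr4a2 differed by -0.24 ± 0.28, with overlapping groups and an unadjusted limma p of 0.418.

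Among the zinc finger factors of the Egr family, Egr4 stood at 3.47, 3.35, 3.13 and 3.44 in the controls and 2.42, 2.72, 2.94 and 2.21 in Fe day 15. Every Fe array was below every control array, and the difference was -0.78 ± 0.21 (limma adjusted p = 0.222). Egr2, which in other tissue directs myelination, was at -1.05, -1.29, -1.82 and -1.03 in the controls and at -2.39, -2.55, -1.91 and -2.37 in Fe day 15, where replicate 3 came closest to the control range. Its relative Egr3 differed by -0.25 ± 0.14 and its groups overlapped.

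Npas4, a factor that responds to calcium entry in neurons, had dim values of -4.61, -5.23, -5.21 and -5.48 in the controls and -6.06, -6.25, -5.79 and -6.93 in Fe day 15, and was above background on 3 of the 4 Fe arrays. The difference was -1.13 ± 0.34, and the level on the remaining Fe array is only a bound. Btg2, an inhibitor of cell division that firing also induces, was at 1.15, 1.12, 1.01 and 1.08 in the controls and at 0.37, 0.47, 0.58 and 0.62 in Fe day 15, a difference of -0.58 ± 0.15. The values of Ier2, a small nuclear protein, were 2.51, 2.24, 2.18 and 2.14 against 1.80, 1.36, 1.82 and 1.92, and those of Junb, a partner of Fos in the AP-1 complex, 1.06, 0.88, 0.73 and 0.95 against 0.24, 0.27, 0.62 and 0.34. Neither gene's groups overlapped, and the differences were -0.54 ± 0.16 and -0.54 ± 0.20.

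The kinase Plk2, which acts on synapses after firing, differed by -0.39 ± 0.16 with no overlap. Dusp5, a phosphatase of the MAP kinase ERK, and Trib1, a pseudokinase, differed by -0.65 ± 0.28 and -0.60 ± 0.28, both with overlap. These 2 completed the 11 members at an unadjusted p under 0.05. Several classic members of the list were not among them. Arc, a protein of dendrites and synapses, was at 4.77, 4.56, 4.31 and 4.26 in the controls and 3.87, 3.56, 4.30 and 2.77 in Fe day 15, where replicate 3 lay in the control range and replicate 4 was lowest, and its unadjusted limma p was 0.0658. Without replicate 4 the difference of -0.85 was -0.57. For Fos the difference was -0.48 ± 0.32 (limma adjusted p = 0.559) and for Jun 0.07 ± 0.13.

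**Figure D2:**
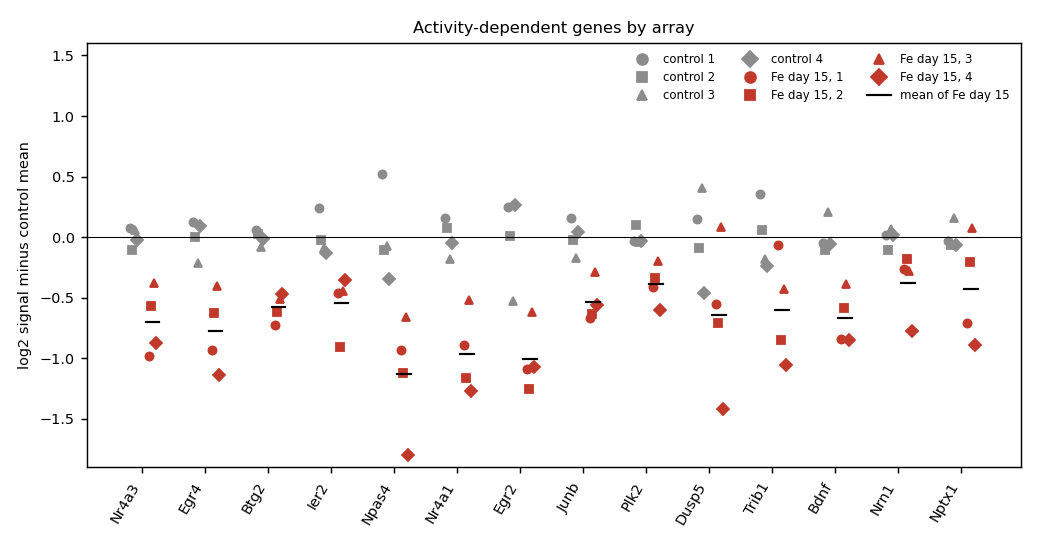
Log2 signal relative to each gene's control mean (vertical axis) for the 11 immediate early genes with an unadjusted p under 0.05 and for Bdnf, Nrn1 and Nptx1. Grey points are the 4 control arrays and red points the 4 Fe day 15 arrays, with a marker for each replicate and a bar at the Fe mean; the red points lie lower, without overlap in 9 of the 11.

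The sequences just before the start of these genes were read from RefSeq to show which hold the letters that activity-dependent factors bind. Of the 33 tested members, 24 had an entry in the promoter table (build GRCr8), and the 250 bases before each start were searched on both strands. The cyclic AMP response element, TGACGTCA, was in 5 of the 24, against 466 of 27457 promoters in the table (1.7%) and 2.78% of those of the named genes tested. The CArG box, to which serum response factor binds, was in 2 of the 24 and in 1.5% of all promoters. Of the 9 matched members with an unadjusted p under 0.05, 3 held the first motif (Btg2, Ier2 and Plk2) and 2 the second (Egr2 and Dusp5), and no such stretch held both. Neither motif is shown by this to be used. Those of Ier2, at chr19:40399123-40399372 on the plus strand, Btg2, at chr13:48087691-48087940 on the minus strand, and Egr2, at chr20:21054442-21054691 on the minus strand, follow, written 5′ to 3′ along the gene and ending at the base before its start, with the cyclic AMP response element (Ier2, Btg2) or the CArG box (Egr2) in capitals.
Ier2: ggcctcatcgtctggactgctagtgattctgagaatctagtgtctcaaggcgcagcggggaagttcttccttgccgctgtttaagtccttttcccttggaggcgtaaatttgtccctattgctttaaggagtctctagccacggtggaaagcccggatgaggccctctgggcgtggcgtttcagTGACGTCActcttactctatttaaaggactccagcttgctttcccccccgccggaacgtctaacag
Btg2: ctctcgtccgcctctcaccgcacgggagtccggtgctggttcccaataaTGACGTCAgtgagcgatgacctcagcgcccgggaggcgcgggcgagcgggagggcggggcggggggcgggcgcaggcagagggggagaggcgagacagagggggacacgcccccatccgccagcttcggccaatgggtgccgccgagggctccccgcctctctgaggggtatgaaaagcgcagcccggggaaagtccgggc
Egr2: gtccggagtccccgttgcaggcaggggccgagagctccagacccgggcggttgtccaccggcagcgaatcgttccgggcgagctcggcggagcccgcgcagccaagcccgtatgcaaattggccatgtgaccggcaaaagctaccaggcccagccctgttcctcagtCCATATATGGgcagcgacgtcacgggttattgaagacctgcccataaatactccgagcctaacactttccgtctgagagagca
The 3 genes differed between the groups by -0.54, -0.58 and -1.01. Jund and Dusp1 also hold the cyclic AMP response element, and their differences were -0.28 ± 0.17 and -0.27 ± 0.14.

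The count of 11 stayed between 9 and 13 when any 1 of the 8 arrays was left out, and the median of the list between -0.40 and -0.32. With slide as a block the median was -0.27, and with position on the slide as a term it was -0.71. The step from the first to the second position is there estimated from Fe day 5 replicate 4 against replicates 1 to 3 of its group alone, so group and position cannot be told apart from these 8 arrays.

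Genes made after longer firing went both ways. Bdnf, a growth factor that supports neurons and strengthens synapses, had the lowest unadjusted p of any list member that was lower. It stood at 0.82, 0.77, 1.07 and 0.81 in the controls and at 0.03, 0.28, 0.48 and 0.02 in Fe day 15, a clear gap between the groups with replicates 1 and 4 lowest. The difference was -0.67 ± 0.11, or 1.59-fold lower (limma adjusted p = 0.0814), and a second probe for the gene gave -0.70. Nrn1, a small protein that promotes the growth of neurites, differed by -0.37 ± 0.12 with no overlap, and by -0.24 without replicate 4. Nptx1, a pentraxin that gathers AMPA receptors, differed by -0.43 ± 0.19 with Fe replicate 3 inside the control range.

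On the other side stood Rrad, a small GTPase that holds back voltage-gated calcium channels, at -2.05, -2.08, -2.25 and -2.04 in the controls and -1.71, -1.68, -1.47 and -1.46 in Fe day 15. This difference of 0.53 ± 0.08 (1.44-fold) had the lowest p of any named gene that was higher (limma adjusted p = 0.0743). The trophic factor Gdnf differed by 0.25 ± 0.10 with overlapping groups. Tac1, which encodes substance P, was at -0.64, -0.27, -0.88 and -0.76 in the controls and 2.20, 0.28, -0.15 and 1.05 in Fe day 15, and the Fe arrays ranged over more than 2 log2 units. Its difference of 1.48 was 1.03 without replicate 1 and 1.41 without replicate 4. Somatostatin (Sst) was at 4.25, 3.92, 3.65 and 4.00 against 4.29, 4.39, 4.42 and 4.51, higher on every Fe array by a mean of 0.45 ± 0.21. Of the 29 members tested, 3 were higher and 3 lower at an unadjusted p under 0.05, against 5.17% and 6.61% of all features. The median was -0.09, or -0.18 without Fe replicate 3 and -0.01 without replicate 4.

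Genes of excitatory synapses had a median below that of all features. Of 24 tested genes of glutamate receptors and their scaffold, 5 were lower and 0 higher at an unadjusted p under 0.05. Over all features these shares were 6.61% and 5.17%. The median was -0.22, and scores on the Fe arrays were -0.25, -0.08, -0.07 and -0.47 against -0.05 to 0.02 in the controls. Dlg4, the main scaffold of the postsynaptic density, was at 0.70, 0.68, 0.62 and 0.55 in the controls and 0.31, 0.52, 0.34 and -0.04 in Fe day 15, below on every array with a mean difference of -0.35 ± 0.14. Gria2, the AMPA receptor subunit that keeps calcium out, stood at 3.80, 3.65, 3.82 and 3.68 against 3.38, 3.61, 3.48 and 3.00, a difference of -0.37 ± 0.16. Gria1, Shank3 and the vesicular glutamate transporter Slc17a7 differed by -0.38 ± 0.17, -0.35 ± 0.15 and -0.35 ± 0.14, each with an Fe value in the control range. The count of 5 was 0 when Fe replicate 4 was left out, 1 when control replicate 1 or 3 was left out and 2 when control replicate 2 or Fe replicate 1 was left out, and the median was -0.14 without replicate 4. The NMDA receptor subunit Grin1, present in nearly all such synapses, differed by -0.23 ± 0.12 (limma adjusted p = 0.487).

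The opposite was seen for Slc17a6, the vesicular glutamate transporter of thalamic and other subcortical neurons. It stood at -0.79, -0.98, -1.08 and -0.65 in the controls and at 3.19, -0.36, -0.87 and 0.75 in Fe day 15, so that Fe replicate 1 was far above all others and replicate 4 next. The same replicate was highest for Syt2, a calcium sensor of fast synapses, at 0.48, -2.86, -3.44 and -2.0 against -3.25, -3.40, -3.38 and -2.85 in the controls. Calretinin (Calb2), a calcium-binding protein of interneurons, was at 3.97, 2.01, 1.85 and 2.28 in Fe day 15 and 2.39, 0.77, 1.54 and 1.03 in the controls, again with replicate 1 highest. Without that array the differences of the 3 genes, 1.55, 1.26 and 1.09, were 0.71, 0.45 and 0.61, and with position on the slide as a term those of Slc17a6 and Syt2 turned to -0.46 and -0.71. Replicate 1 was also the highest array of the 8 in 16 of 22 oligodendrocyte genes, where its score was 0.51 against -0.22 to 0.36 on the other 7. The part that the tissue taken has in these values was not tested.

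Inhibitory genes showed no common direction. Of 22 tested, 3 were higher and 3 lower at an unadjusted p under 0.05, against 5.17% and 6.61% of all features. The median was 0.01. Gabra4, a GABA-A receptor subunit found outside synapses, was at 0.26, 0.38, 0.24 and 0.22 in the controls and -0.18, -0.18, 0.06 and -0.67 in Fe day 15. It was lower on every Fe array, with a difference of -0.52 ± 0.18. Gabra5 differed by -0.47 ± 0.22 with overlap, and by 0.00264 with position as a term. Gad1, which makes GABA, was higher by 0.34 ± 0.14, and Abat, which degrades it, by 0.29 ± 0.13, in both cases with overlapping groups and replicate 1 at the top. The higher count was 0 when Fe replicate 1 was left out, 1 when control replicate 2 or 3 was left out and 5 when Fe replicate 3 was left out.

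Voltage-gated channels had a median of -0.13, with 28 of 37 members lower in the mean and 6 lower against 2 higher at an unadjusted p under 0.05. Over all features 49.7% were higher in the mean, and 6.61% were lower and 5.17% higher at that p. The lower count was 0 when control replicate 3 was left out, 1 when control replicate 1 or Fe replicate 4 was left out and 2 when control replicate 2 was left out. Among the potassium channels of axons and dendrites, Kcna1 was at 4.65, 4.66, 4.88 and 4.61 in the controls and 4.59, 4.47, 4.46 and 3.90 in Fe day 15, and Kcnd2 at 2.56, 2.67, 2.55 and 2.51 against 2.31, 2.23, 2.33 and 1.57. Their differences of -0.35 ± 0.15 and -0.46 ± 0.20 came without overlap, and replicate 4 was the lowest in both, without which they were -0.20 and -0.28. Kcnab1, a beta subunit of such channels, differed by -0.44 ± 0.18, also without overlap. Kcnh1, Kcnip2 and the P/Q-type calcium channel Cacna1a differed by -0.30 ± 0.11, -0.43 ± 0.20 and -0.47 ± 0.20 with overlap. Higher were the T-type calcium channel Cacna1g at 0.59 ± 0.21 and Kcnip3, a calcium-binding partner of potassium channels that also acts as a repressor of transcription, at 0.57 ± 0.21. Of the vesicle release machinery, Unc13a, which primes vesicles, and Syt7, a slow calcium sensor, were lower on every Fe array with a mean difference of -0.52 ± 0.17 and -0.63 ± 0.24, in a list of 35 whose median was -0.02.

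Markers of dentate granule cells were lower on all 4 Fe arrays in the list score. Of 9 tested, 7 were lower in the mean, and the median was -0.45. At an unadjusted p under 0.05, 4 were lower and 1 higher, against 6.61% and 5.17% of all features. The score was -0.45, -0.21, -0.16 and -0.79 on the Fe arrays and -0.07 to 0.09 on the controls. C1ql2, a synaptic organiser secreted by mossy fibres, was at 3.49, 3.87, 3.62 and 4.11 in the controls and 2.69, 3.51, 3.31 and 2.99 in Fe day 15, a difference of -0.65 ± 0.21 with replicate 2 inside the control range. The calcium-permeable channel Trpc6 was at -0.93, -0.53, -0.71 and -0.77 against -1.49, -1.17, -1.11 and -1.83 and Il16, whose neuronal form is a scaffold, at -1.71, -1.83, -1.76 and -2.02 against -2.51, -2.14, -2.08 and -2.78, both with no overlap, and the difference of Il16 turned from -0.55 to 0.21 with position as a term. The synaptic protein C1ql3 differed by -0.30 ± 0.14 and Pdzd2, a protein with PDZ domains, by 0.29 ± 0.12, each with overlap. Prox1, the factor that keeps granule cells in their identity, was at -2.72, -2.77, -2.72 and -2.48 in the controls and -3.12, -2.88, -2.77 and -3.95 in Fe day 15, where replicate 4 lay far below the rest and the mean difference was -0.51 ± 0.31. Without that replicate it was -0.25, the median of the list was -0.25, and the count of 4 was 1 when Fe replicate 1 or 4 was left out and 2 when control replicate 1 or 2 was left out. How far the share of dentate tissue in each sample bears on the immediate early and synaptic lists was not tested.

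Genes of the CA fields had scores on both sides of the controls. Their median was 0.04, with 2 of 18 higher and 3 lower at an unadjusted p under 0.05, against 5.17% and 6.61% of all features. Neurod6, a factor of pyramidal neurons, and Bhlhe22 differed by -0.54 ± 0.24 and -0.54 ± 0.25 with overlap, and Bok, a relative of Bcl2, by -0.74 ± 0.29. Plagl1, an imprinted zinc finger gene, was at -5.85, -5.56, -4.98 and -4.49 in the controls and -3.94, -2.88, -3.16 and -1.53 in Fe day 15, 5.08-fold higher in the mean with no overlap and a wide spread in both groups. Nectin3, an adhesion protein, was higher by 0.30 ± 0.11. The higher count was 4 when Fe replicate 3 was left out, and the lower count 0 when control replicate 3 or Fe replicate 4 was left out and 1 when control replicate 1 or 2 or Fe replicate 1 was left out.

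The list that joins genes of newborn neurons and of dividing cells had a higher score on all 4 Fe arrays. Of its 27 tested members, 5 were higher and 1 lower at an unadjusted p under 0.05, against 5.17% and 6.61% of all features. The median was 0.11. The scores of 0.07, 0.10, 0.07 and 0.27 on the Fe arrays were all above those of the controls, -0.05 to 0.02, and replicate 4 was highest. Sox11, a factor of immature neurons, stood at -4.33, -4.45, -4.36 and -4.19 in the controls and -3.38, -3.93, -3.79 and -3.19 in Fe day 15, a difference of 0.76 ± 0.18 (1.69-fold, limma adjusted p = 0.181) with no overlap. Doublecortin (Dcx), the microtubule protein by which newborn neurons are usually recognised, was at 1.38, 1.65, 1.53 and 1.61 against 1.65, 2.04, 1.77 and 2.41, and Dpysl3, another protein of growing neurites, at -1.5, -1.51, -1.5 and -1.60 against -1.21, -1.34, -1.44 and -1.0. Every Fe array was above every control array for both, although for Dcx Fe replicate 1 exceeded control replicate 2 by only 0.0023. Without Fe replicate 4 the difference of Dcx was 0.28 in place of 0.42. Of the cell cycle genes, Ccnb2 and Cdk1, which together drive entry into mitosis, differed by 0.44 ± 0.13 and 0.42 ± 0.16, each with 1 Fe array or more in the control range. Neurod1, needed for granule neurons to mature, went the other way at -0.42 ± 0.19. Among the remaining cell cycle genes, Ccna2 and Mcm6 differed by 0.38 ± 0.19 and 0.30 ± 0.16. Pcna, Ccnd2, Tyms and Ccnd1 differed by 0.003, -0.05, -0.10 and -0.11, and Sox2 and Nes by -0.14 and -0.08, all with overlap. The count of 5 was 3 when Fe replicate 4 was left out.

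Heat shock genes were higher in the list score on 3 of the 4 Fe arrays. The list holds chaperones of the cytosol with their partners and the mitochondrial chaperones Hspd1 and Hspe1. The heat shock score was 0.15, 0.31, 0.22 and -0.12 on Fe replicates 1 to 4 and -0.05 to 0.06 on the controls. At an unadjusted p under 0.05, 5 of 21 tested members were higher with 0 lower, against 5.17% and 6.61% of all features. Hspa1a, the inducible Hsp70, was at -0.01, -0.09, 0.18 and -0.04 in the controls and at 1.64, 2.55, 2.09 and -0.40 in Fe day 15. On Fe replicates 1 to 3 it was above every control and on replicate 4 below every control, and the difference over all was 1.46 ± 0.54 (limma adjusted p = 0.344). Hspb1, a small chaperone that glia make in injury, was the 1 member with replicate 4 above all other control and Fe arrays. It stood at -1.31, -1.87, -1.62 and -1.93 against -0.66, -0.50, -0.49 and -0.21, a mean difference of 1.22 ± 0.45. Dnajb5 went the other way, below every control on all 4 Fe arrays, with a difference of -0.43 ± 0.22 (limma adjusted p = 0.467). Bag3 and Chordc1, partners of Hsp70 and Hsp90, were at 2.40, 2.42, 2.64 and 1.97 and at 3.57, 3.80, 3.80 and 3.08 in Fe day 15, against 2.10, 1.76, 2.08 and 1.70 and 3.25, 3.18, 3.26 and 3.01 in the controls. For both, replicate 4 alone lay in the control range. Stip1, which hands clients from Hsp70 to Hsp90, differed by 0.25 ± 0.11 with the same pattern, and Hsp90aa1 by 0.15 ± 0.07 (limma adjusted p = 0.451). The count of 5 was 1 when Fe replicate 3 was left out, 2 when Fe replicate 2 was left out, 3 when control replicate 4 was left out and 11 when Fe replicate 4 was left out, and without replicate 4 the median of the list was 0.23 in place of 0.15, and without replicate 2 it was 0.09.

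The response to unfolded protein in the endoplasmic reticulum had higher and lower members, with a median of 0.04. At an unadjusted p under 0.05, 5 of 22 were higher and 1 lower, against 5.17% and 6.61% of all features. Herpud1, which helps to degrade misfolded protein, stood at 1.54, 1.49, 1.61 and 1.64 in the controls and 2.15, 2.18, 2.12 and 1.69 in Fe day 15, and Sdf2l1, a co-chaperone, at 0.73, 0.41, 0.76 and 0.59 against 1.31, 1.25, 1.12 and 0.84. All Fe values were above the controls in both, with replicate 4 nearest to them, and the differences were 0.47 ± 0.15 and 0.51 ± 0.19. Atf4, the factor at the head of the integrated stress response, was higher on every Fe array by 0.19 ± 0.08. Creld2 was at -0.10, -0.37, -0.09 and -0.32 against 0.32, 0.29, 0.24 and -0.19 and Dnajc3 at -0.12, -0.31, -0.17 and -0.21 against 0.07, 0.11, 0.07 and -0.18, higher on Fe replicates 1 to 3. Calreticulin (Calr), a calcium-binding chaperone, went the other way. It was at 4.03, 3.82, 3.87 and 3.67 in the controls and 3.47, 3.42, 3.04 and 2.99 in Fe day 15, below on every Fe array with a mean difference of -0.62 ± 0.19. The higher count of 5 was 2 when control replicate 2 was left out and 3 when control replicate 3 or Fe replicate 1 or 2 was left out, and with position on the slide as a term the differences of Calr and Atf4 turned to 0.22 and -0.06.

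**Figure D3:**
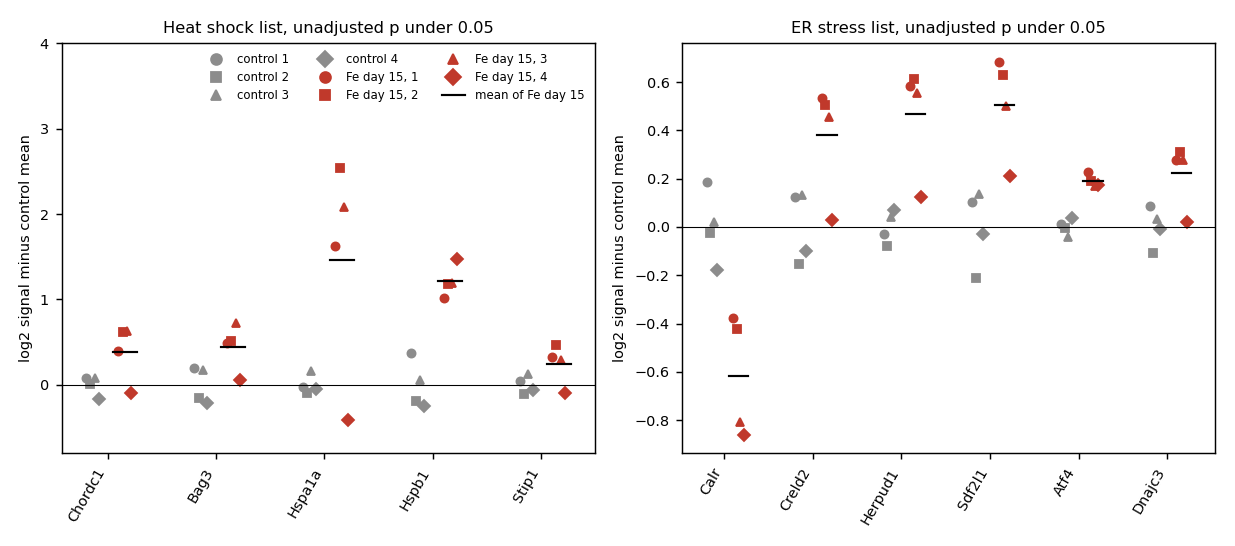
Log2 signal relative to each gene's control mean (vertical axis) for the 5 heat shock genes (left) and 6 endoplasmic reticulum stress genes (right) with an unadjusted p under 0.05. Grey points are the 4 control arrays and red points the 4 Fe day 15 arrays, the diamond being replicate 4; the red diamond lies among the grey points for Chordc1, Bag3, Stip1, Creld2 and Dnajc3 and below them for Hspa1a, and all red points of Calr lie below the grey ones.

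The endoplasmic reticulum stress element, CCAAT followed after any 9 bases by CCACG, is the letter pattern that the factors Atf6 and Xbp1 bind with NF-Y. It was in 6 of the 19 members with an entry in the promoter table, against 21 of 27457 promoters (0.0765%) and 0.169% of those of the named genes tested. Creld2 and Calr both hold it and differed in opposite directions, which is why their sequences are shown. They lie at chr7:121789134-121789383 (plus strand) and chr19:40213117-40213366 (plus strand) on GRCr8, are written as for Ier2, and carry the element, here on the opposite strand, in capitals.
Creld2: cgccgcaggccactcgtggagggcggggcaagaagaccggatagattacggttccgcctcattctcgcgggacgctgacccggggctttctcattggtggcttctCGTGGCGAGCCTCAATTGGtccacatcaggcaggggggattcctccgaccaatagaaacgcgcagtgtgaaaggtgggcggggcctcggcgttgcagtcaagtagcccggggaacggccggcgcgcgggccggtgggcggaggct
Calr: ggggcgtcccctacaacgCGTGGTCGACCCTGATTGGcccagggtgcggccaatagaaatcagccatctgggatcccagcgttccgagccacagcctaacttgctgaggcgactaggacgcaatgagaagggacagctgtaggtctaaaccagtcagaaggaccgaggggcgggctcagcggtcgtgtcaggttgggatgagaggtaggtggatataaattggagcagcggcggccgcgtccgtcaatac
In the 250 bases before their starts, Creld2, Dnajc3 and Calr were the 3 of 6 members at an unadjusted p under 0.05 with the element, and Hspa5, the main chaperone of the compartment, holds it too. Hspa5 differed by 0.22 ± 0.12 (limma adjusted p = 0.466). The heat shock element, spelled strictly as GAA, TTC and GAA with any 2 bases between them, or its reverse complement, was in 4 of 18 matched members of the heat shock list and in 0.597% of all promoters, and in 0 of the 5 members at an unadjusted p under 0.05. No match says only that these letters are not in this window.

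The glucocorticoid receptor is the sensor of the stress hormone corticosterone. The list of its targets, which also holds the genes of this receptor and of the mineralocorticoid receptor, had a median of 0.19. At an unadjusted p under 0.05, 3 of 26 were higher and 3 lower, against 5.17% and 6.61% of all features. Scores were 0.10, 0.29, 0.50 and -0.06 on the Fe arrays and -0.04 to 0.05 on the controls, and replicate 4 was again the exception. Tsc22d3, a classic target also called GILZ, was at 2.72, 3.23, 3.17 and 2.56 in the controls and 3.40, 3.36, 3.62 and 3.30 in Fe day 15, with a difference of 0.50 ± 0.19 and no overlap, whereas a dimmer second probe gave 0.10. Pdk4, which spares glucose by blocking pyruvate entry into the citric acid cycle, was at -6.09, -5.54, -5.83 and -7.17 against -4.66, -4.78, -4.21 and -5.44, above background on 3 of 4 control arrays, and higher by 1.39 ± 0.56. Sgk1, a kinase, was at 1.95, 2.09, 2.33 and 1.78 in the controls and 2.89, 2.73, 3.23 and 2.02 in Fe day 15, higher on replicates 1 to 3. The receptor itself, Nr3c1, stood lower, at 1.23, 1.25, 1.29 and 1.26 against 0.86, 0.77, 0.83 and 0.91, with a difference of -0.41 ± 0.13. The mineralocorticoid receptor Nr3c2 differed by -0.53 ± 0.22, with Fe replicate 3 in the control range. The type I receptor for TGF-beta, Tgfbr1, was lower on every Fe array with a mean difference of -0.44 ± 0.13, where 2 dimmer probes each gave -0.16. Zbtb16, a zinc finger target, was higher by 0.40 ± 0.18 with overlap. The higher count of 3 was 0 when control replicate 4 or Fe replicate 3 was left out, 1 when control replicate 1 was left out and 7 when Fe replicate 4 was left out, and the median 0.10 without Fe replicate 3 and 0.28 without replicate 4. Of 13 clock genes only Cry2, a repressor of the clock, had an unadjusted p under 0.05, at -0.22 ± 0.10.

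The 6 lists of lipid metabolism had medians between -0.05 (cholesterol) and 0.10 (eicosanoids), close to that of all features. In fatty acid oxidation, 6 of 39 were higher and 4 lower at an unadjusted p under 0.05, against 5.17% and 6.61% of all features. Hsd17b4, an enzyme of peroxisomal oxidation, was at 0.36, 0.21, 0.42 and 0.23 in the controls and 0.68, 0.58, 0.54 and 0.64 in Fe day 15, and Cpt1b, a carnitine transferase that admits fatty acids to mitochondria, at -0.71, -0.56, -0.78 and -0.65 against -0.17, -0.22, -0.40 and -0.20. Neither gene's groups overlapped, with differences of 0.30 ± 0.08 and 0.43 ± 0.14. Ech1, which handles unsaturated fatty acids, and the lipase Pnpla2 were higher by 0.21 ± 0.08 and 0.23 ± 0.10, beside Pdk4. The 4 lower members were Bdh1, a mitochondrial dehydrogenase, Crot, of peroxisomes, Mgll, which degrades an endocannabinoid, and the electron carrier Etfa, with differences of -0.48, -0.31, -0.50 and -0.22. The lower count of 4 was 1 when Fe replicate 4 was left out and 2 when control replicate 1, 2 or 3 was left out.

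In the synthesis of fatty acids and glycerolipids, Pemt, which makes phosphatidylcholine from phosphatidylethanolamine, stood at -0.06, -0.20, -0.17 and -0.25 in the controls and -0.68, -0.61, -0.57 and -0.65 in Fe day 15. The 4 Fe values lay close together and below the controls, and the difference of -0.46 ± 0.08 had a limma adjusted p of 0.0814. Pcyt1a, the rate-limiting enzyme of the other route to phosphatidylcholine, was higher on every Fe array, at -2.11, -2.20, -2.17 and -2.08 against -1.77, -1.94, -1.87 and -1.85, by 0.28 ± 0.10. Elovl1, which lengthens saturated fatty acids, was higher by 0.31 ± 0.12, and Agpat1, Gpam and the desaturase Fads1 differed by -0.20, -0.42 and -0.29, all 4 without overlap. With position as a term Elovl1 turned to -0.05. Over the 33 members the median was -0.03. At an unadjusted p under 0.05, 4 were lower, against 6.61% of all features, and this count was 2 when control replicate 3 or Fe replicate 4 was left out.

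Among lipid carriers, Apoa1, the main protein of high-density lipoprotein, stood at -4.41, -4.60, -4.61 and -4.42 in the controls and -3.49, -2.81, -3.12 and -3.84 in Fe day 15. All Fe values were higher, replicate 2 most, and the difference was 1.19 ± 0.26 (2.28-fold, limma adjusted p = 0.146). Lrp2, a large receptor for lipoproteins, and the transporter Abcg4 were higher by 0.71 ± 0.32 and 0.24 ± 0.10, and Osbp, a sterol carrier, differed by -0.18 ± 0.07. Of 34 members the median was -0.01. At an unadjusted p under 0.05, 3 were higher, against 5.17% of all features, and this count was 1 when control replicate 3 or Fe replicate 4 was left out. In the eicosanoid list of 31, the phospholipase Pla2g3 was at -3.65, -3.57, -3.42 and -3.36 against -2.89, -2.33, -1.95 and -3.72, above the controls in replicates 1 to 3. Alox15, a lipoxygenase that oxidises membrane lipids, was at -5.80, -5.93, -5.67 and -5.80 in the controls, 3 of 4 above background, and -5.34, -4.69, -4.58 and -4.27 in Fe day 15, a difference of 1.08 ± 0.45 that turned to -0.76 with position as a term. Cyp4f4, a hydroxylase of leukotrienes, differed by -0.41 ± 0.18, which turned to 0.17. The higher count of 2 was 0 when Fe replicate 2 was left out, 1 when control replicate 1 or 4 or Fe replicate 3 was left out and 4 when control replicate 3 was left out, and the median 0.06 without control replicate 2 and 0.18 without Fe replicate 1.

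The sphingolipid list had a median of -0.03, with 4 of 34 lower and 0 higher at an unadjusted p under 0.05, where 6.61% and 5.17% of all features were. B4galt6, which makes lactosylceramide, was at 3.18, 3.24, 3.24 and 3.15 in the controls and 2.92, 3.07, 3.06 and 2.93 in Fe day 15, below on every array with a mean difference of -0.20 ± 0.07. B4galnt1 and St8sia3, which build the gangliosides of neurons, and Smpd3, a neutral sphingomyelinase, differed by -0.32, -0.30 and -0.34. The lower count was 1 when Fe replicate 4 was left out and 2 when control replicate 2 was left out. In the cholesterol list only Srebf2, the factor that turns on the pathway, had an unadjusted p under 0.05, at -0.58, -0.18, -0.59 and -0.58 against -0.72, -0.73, -0.67 and -0.95 and a difference of -0.28 ± 0.11.

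Iron and antioxidant genes had medians near that of all features. Of 23 iron genes, 1 was higher at an unadjusted p under 0.05, against 5.17% of all features. It was Heph, a ferroxidase that aids iron export, at -2.76, -2.92, -2.85 and -2.92 in the controls and -1.65, -2.53, -2.63 and -1.53 in Fe day 15, with replicates 1 and 4 the highest. Its difference of 0.78 was 0.63 without replicate 1 and 0.59 without replicate 4. Haem oxygenase (Hmox1) differed by 0.38 ± 0.21 (limma adjusted p = 0.488), and the list median was 0.06, or -0.01 without Fe replicate 4. Of 34 antioxidant genes, 3 were higher and 2 lower at an unadjusted p under 0.05, against 5.17% and 6.61% of all features, with a median of 0.03. Gclc, the rate-limiting enzyme of glutathione synthesis, was at -2.58, -2.63, -2.42 and -2.64 against -2.75, -2.88, -2.85 and -2.87, lower on every Fe array with a mean difference of -0.27 ± 0.08, and Gsr, which recycles glutathione, differed by -0.18 ± 0.08 with overlap. Prdx2, a peroxiredoxin, and Gsta4, which clears the lipid peroxidation product hydroxynonenal, were higher on every Fe array by 0.22 ± 0.07 and 0.61 ± 0.25. Gpx3, the glutathione peroxidase of plasma, differed by 0.75 ± 0.26 with overlap.

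The scores of 4 immune lists were above all controls on Fe replicate 4 and on none of the other 3 Fe arrays. The microglia score was -0.17, -0.20, -0.17 and 1.15 on Fe replicates 1 to 4 against -0.13 to 0.12 on the controls, and replicate 4 was the highest of the 8 arrays in 26 of 30 members. The complement scores were -0.03, 0.01, -0.08 and 1.02 against -0.14 to 0.07, those of antigen presentation and interferon 0.05, -0.07, -0.33 and 1.06 against -0.07 to 0.15, and those of cytokines -0.17, 0.03, -0.12 and 0.56 against -0.06 to 0.04. Cd68, a lysosomal protein of phagocytes, was at -2.32, -2.20, -2.42 and 1.48 in Fe day 15 and -1.89, -2.42, -1.42 and -2.23 in the controls, and Lgals3, a lectin of activated microglia, at -0.57, -1.40, -0.32 and 2.49 against -0.29, -1.27, 0.31 and -1.26. Mx1, an antiviral protein induced by interferon, was at -5.29, -3.90, -6.10 and -0.48 against -5.98, -5.67, -6.02 and -4.91, and Rsad2, another, at -2.40, -2.82, -3.26 and 0.88 against -2.98, -2.98, -3.41 and -2.15. Replicate 4 was highest in each of the 4, by more than 1 log2 unit. C1qa, a subunit of the first complement component, was at 2.88, 3.00, 2.83 and 4.08 against 2.89, 2.88, 3.01 and 2.76 in the controls. Without replicate 4 the differences of Cd68, Lgals3, Mx1, Rsad2 and C1qa were -0.32, -0.13, 0.55, 0.06 and 0.02, in place of 0.63, 0.68, 1.70, 0.98 and 0.32. On the same array the scores were 0.76 for choroid plexus, 0.73 for meninges and -0.79 for dentate genes, and the part these have in the immune values was not tested. Without replicate 4 the medians of the microglia and complement lists were -0.15 and -0.04, in place of 0.13 and 0.28.

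Few immune genes differed on all Fe arrays alike. Coro1a, an actin-binding protein of leukocytes that neurons also make, was at 4.89, 4.91, 4.95 and 5.00 in the controls and 4.43, 4.68, 4.77 and 4.67 in Fe day 15, a difference of -0.30 ± 0.08. The fractalkine gene Cx3cl1, a neuronal signal to microglia, differed by -0.35 ± 0.13, and the alarmin Il33, made by glia, by -0.34 ± 0.12 with overlap. Cfp, or properdin, and the complement inhibitor Cd55 were higher by 0.34 ± 0.12 and 0.84 ± 0.30 with overlap. The class I histocompatibility gene RT1-CE3 was at -1.80, -1.92, -1.66 and -1.66 in the controls and 0.85, -0.40, 0.73 and -1.11 in Fe day 15. All 4 Fe values were higher, and they spread over almost 2 log2 units. The related RT1-A2 and RT1-S3 were at 2.67, 1.68, 2.64 and 2.36 and 1.68, 0.56, 1.67 and 1.44 in Fe day 15 against 1.41, 1.26, 1.44 and 1.5 and 0.74, 0.64, 0.44 and 0.77 in the controls. A second RT1-A2 probe of similar brightness differed by 0.00133, against 0.94 for the one shown. These genes have near-identical copies that vary between rats, so that their probes may not separate them.

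**Figure D4:**
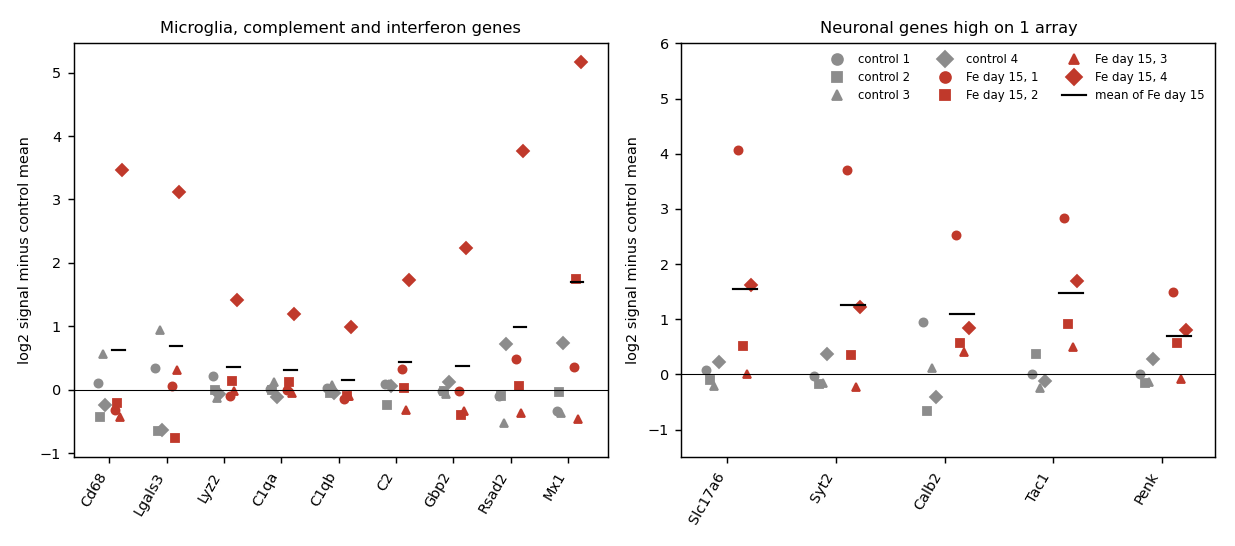
Log2 signal relative to each gene's control mean (vertical axis) for 9 genes of microglia, complement and interferon (left) and 5 neuronal genes (right), with grey points for the 4 control arrays and red points for the 4 Fe day 15 arrays. The red diamonds, Fe replicate 4, stand highest on the left, and the red circles, Fe replicate 1, highest on the right.

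The blood cell list had scores of -0.07, 0.75, 0.70 and 0.91 on the Fe arrays against -0.22 to 0.17 in the controls, above them on 3 Fe arrays. Haemoglobin beta (Hbb) was at -0.02, -0.47, -0.15 and -0.21 in the controls and -0.08, 0.95, 1.18 and 1.40 in Fe day 15, where replicate 1 was at the control level. S100a9, a calcium-binding protein of neutrophils, was dim at -6.16, -6.26, -5.51 and -5.68 against -5.02, -4.71, -5.18 and -4.64, higher on every Fe array by 1.01 ± 0.33. The other neutrophil members Camp and Np4 differed by 0.32 ± 0.63 and -0.04 ± 0.14, and the platelet members Gp9 and Pf4 by -0.11 ± 0.26 and -0.03 ± 0.60, all with overlap. Of 10 members, 2 were higher at an unadjusted p under 0.05, against 5.17% of all features. The higher count was 1 when control replicate 2 or Fe replicate 2, 3 or 4 was left out and 4 when Fe replicate 1 was left out. The list median of 0.54 was 0.33 without replicate 4 and 0.10 with normexp background correction. Blood left in the tissue was not tested as a source. Astrocyte genes had 3 of 24 higher at an unadjusted p under 0.05, against 5.17% of all features. They were Cd44, an adhesion receptor, by 1.04 ± 0.37, Tgm1 by 0.40 ± 0.15 and Aldh1l1, of folate metabolism, by 0.33 ± 0.15. The higher count was 1 when control replicate 1 or Fe replicate 4 was left out, and the list median was 0.07. That median was 0.03 without replicate 1 and turned to -0.08 without replicate 4. Oligodendrocyte genes had a median of 0.18, with Cldn11, a tight junction protein of myelin, at 0.77, 0.23, 0.99 and 0.66 against 1.39, 1.32, 1.25 and 0.99 and Aspa higher by 0.31 ± 0.14. The median was 0.10 without replicate 1, 0.29 without replicate 4 and -0.39 with position as a term. Endothelial genes had a median of 0.00. Abcg2, an efflux pump of brain vessels, was at -2.69, -1.52, -1.54 and -1.60 in the controls and -0.76, -1.13, -0.53 and -1.26 in Fe day 15, above on every array by 0.92 ± 0.26, whereas Kdr, the receptor of vascular growth factor, and the junction protein Tjp1 differed by -0.47 ± 0.22 and -0.27 ± 0.10 with overlap.

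Choroid plexus and meningeal genes had medians of 0.38 and 0.42, with 0 members of either at an unadjusted p under 0.05 in limma, while 7 of 25 meningeal genes were above all controls, where 4.1% of all features were. The limma standard error also takes in the spread among the day 5 and day 30 arrays. For Igf2 it was 1.00, where the SD was 0.15 in the controls and 0.30 in Fe day 15. The count of 0 therefore does not measure the spread within these 2 groups alone. Without replicate 4 the medians were 0.22 and 0.30, and with position as a term 2.18 and 2.30. Genes of ependyma and pericytes had medians of -0.05 and 0.19, and in the second Mylk, a kinase of smooth muscle, differed by -0.35 ± 0.14, which turned to 0.08 as a mean over its probes. Housekeeping lists stayed near the median of all features. The medians were 0.03 for 55 respiratory chain subunits, -0.01 for 68 ribosomal proteins and 0.04 for 33 proteasome subunits.

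**Figure D5:**
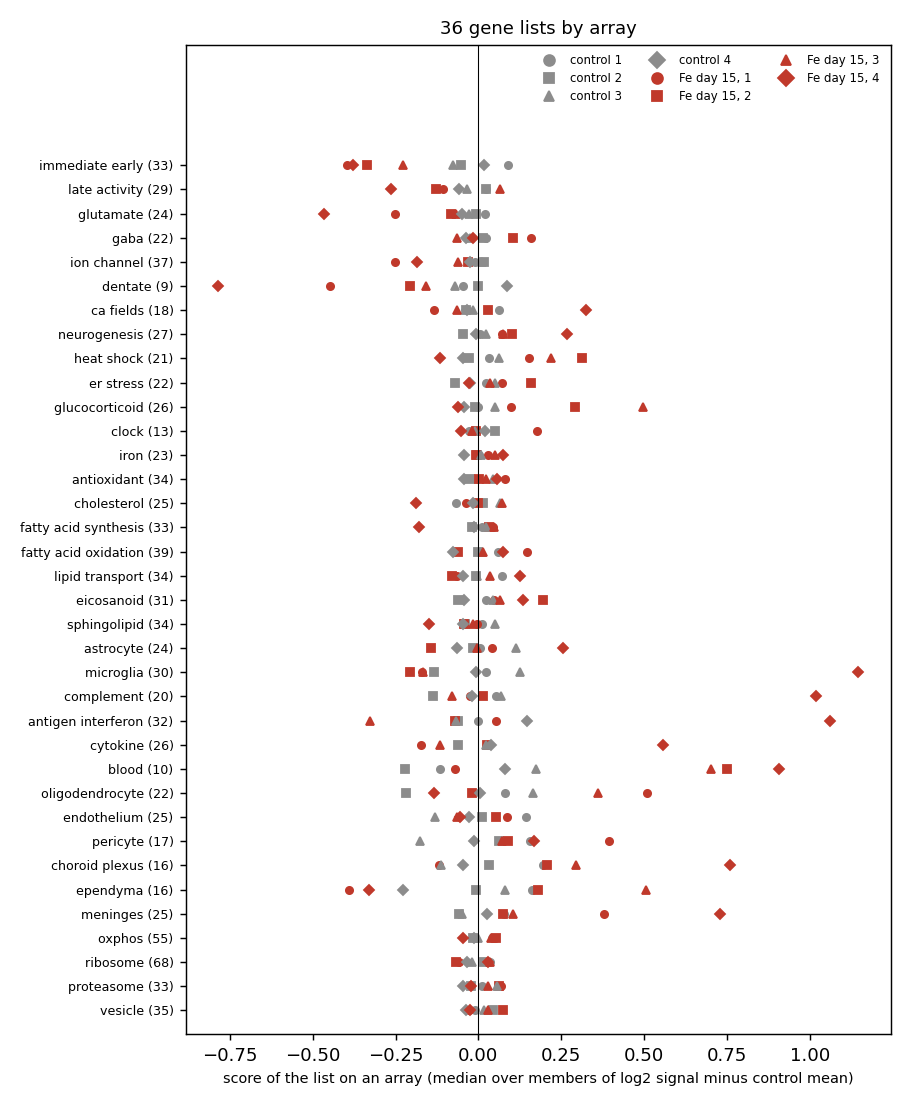
Scores of 36 gene lists (rows, with the number of tested members) on each of the 8 arrays; the horizontal axis is the list score, a median of log2 signals relative to the control means. Grey points are controls and red points Fe day 15; immediate early, dentate, glutamate and ion channel scores lie below the controls on all 4 Fe arrays, and the red diamond (replicate 4) lies far right for the microglia, complement, antigen and interferon, and cytokine lists.

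Outside the lists, the genes of lowest p were mostly different by less than 2-fold, with tight groups. Dok3, an adaptor that restrains signalling in immune cells, was at -2.42, -2.48, -2.66 and -2.66 in the controls and -1.5, -1.64, -1.63 and -1.54 in Fe day 15, 2 compact groups well apart. The difference was 0.98 ± 0.17 (1.97-fold, limma adjusted p = 0.0814), and it was called in the fit of the 8 arrays alone (adjusted p = 0.0271 in limma). Bcl2l1, which encodes the survival protein Bcl-xL, was at 1.92, 1.83, 1.85 and 1.92 against 2.39, 2.31, 2.29 and 2.21, and Trim47, a ubiquitin ligase, at -1.44, -1.34, -1.32 and -1.43 against -0.47, -0.68, -0.75 and -0.44. Prpf19, a splicing factor and ubiquitin ligase, was higher by 0.55 ± 0.10, and Mical2, an enzyme that oxidises actin, by 0.89 ± 0.16. Slc15a4, a peptide transporter of lysosomes, Cables1, a partner of cyclin-dependent kinases, and Slc41a3, a magnesium transporter, were higher by 0.33 ± 0.07, 0.66 ± 0.13 and 0.70 ± 0.16. Serpinf2, the plasmin inhibitor, was at -4.70, -5.00, -5.63 and -5.47 against -4.37, -4.04, -3.72 and -4.21, and Mc4r, the melanocortin receptor, at -4.56, -4.92, -4.39 and -4.18 against -3.05, -2.44, -3.18 and -3.68, both dim and higher by 1.11 ± 0.23 and 1.43 ± 0.31.

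In the other direction Slmap, a membrane-anchored protein of the STRIPAK phosphatase complex, was at -2.36, -2.34, -2.41 and -2.50 in the controls and -2.93, -2.89, -2.86 and -3.15 in Fe day 15, and had the lowest p of all named genes (-0.55 ± 0.09, limma adjusted p = 0.0742). The growth factor Egf stood at -1.99, -1.87, -1.97 and -2.02 against -2.33, -2.62, -2.44 and -2.24, a difference of -0.44 ± 0.08, and was called without Fe replicate 4 (adjusted p = 0.0476 in limma). Apba1, an adaptor of synaptic vesicle release that binds the amyloid precursor, was at -1.91, -2.23, -2.0 and -2.03 against -2.61, -2.52, -2.56 and -2.58. Srsf5, a splicing factor, was at 4.22, 4.22, 4.26 and 4.24 against 3.91, 3.86, 3.78 and 3.87. For both, the 4 Fe values lay close together and below all controls. Bin3, Zfp26, Rhobtb1, Cant1, a nucleotidase, and Usp42, a deubiquitinase, differed by -0.42, -0.52, -0.51, -0.39 and -0.31. Wnt9a, a secreted Wnt ligand, was dim and differed by -0.81 ± 0.17.

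The largest differences without overlap came with wide spreads. Slc27a2, which activates and imports long-chain fatty acids, was at -4.02, -5.01, -4.39 and -3.76 in the controls and 0.06, -2.33, -3.40 and -0.57 in Fe day 15, a 6.66-fold difference (2.73 ± 0.96, limma adjusted p = 0.326). Replicates 1 and 4 were highest, as for Slc17a6, and the value turned to -1.27 with position as a term. The difference was 2.19 without replicate 1 and 2.40 without replicate 4. Zscan25, a zinc finger gene, was at -5.45, -5.46, -5.36 and -5.24 against -3.36, -3.07, -5.09 and -3.28, with replicate 3 barely above the controls, and turned to -0.84. Il22ra2, a soluble trap for interleukin 22, was at -4.58, -4.5, -4.67 and -4.24 against -2.95, -3.35, -2.55 and -3.23, a difference of 1.48 ± 0.36. Bpifc was not well above background on any control array and was at least 2.17-fold higher in Fe day 15 (limma adjusted p = 0.234, measured means -6.89 and -5.32). On the Fe arrays it was at -6.12, -3.63, -5.63 and -5.89, so that this mean and its bound lean on replicate 2. Ikzf3, a lymphoid transcription factor, was not well above background on any Fe array and was at least 2.11-fold lower there (limma adjusted p = 0.266, measured means -5.28 in the controls and -6.46 in Fe day 15). These bounds set the brighter group's mean against the higher of the array's dimmest detected signal and the probe's own. Zap70, a kinase of T cells, was at -0.48, -0.11, -0.67 and -0.70 against -2.35, -0.71, -1.18 and -1.69. The muscle-type actinin Actn3, the ephrin receptor Epha7 and Sim2 differed by -0.93 ± 0.36, -0.87 ± 0.39 and -0.86 ± 0.20, with replicate 4 the lowest of the Fe arrays for the first 2.

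Set against the other iron groups, 0 features differed between Fe day 15 and Fe day 5 (0%) or Fe day 30 (0%) at an adjusted p under 0.05 in limma. At an unadjusted p under 0.05, 1131 were higher (4.14%) and 847 lower (3.1%) than at day 5, and 1019 higher (3.73%) and 760 lower (2.78%) than at day 30. These comparisons share the Fe day 15 arrays with the one above, so genes chosen for their Fe day 15 values tend to differ in them too. Against days 5 and 30, Slc15a4 differed by 0.33 and 0.35 and Zfp26 by -0.59 and -0.47. For Bin3 and Usp42 the values against day 30 were -0.05 and -0.01. The Nr4a1 level at day 15 differed from those at days 5 and 30 by -0.20 and 0.04, and that of Egr4 by -0.20 and 0.09. Btg2 was lower than at both days, with differences of -0.66 and -0.52, and Bdnf likewise with -0.35 and -0.32. Hspa1a was above day 5 by 1.36 and above day 30 by 0.38. Against day 5, 6 of 21 heat shock genes, 6 of 22 endoplasmic reticulum stress genes and 7 of 26 genes of the glucocorticoid list were higher at an unadjusted p under 0.05, with 0, 1 and 1 lower, beside the 4.14% and 3.1% of all features. Against day 30 the same lists had 2, 2 and 3 higher and 0, 0 and 1 lower, beside 3.73% and 2.78%. The immediate early list had 1 member higher and 7 lower than at day 5, and 1 higher and 3 lower than at day 30, where the shares over all features were 3.73% and 2.78%. The immediate early median was -0.12 against day 5 and 0.04 against day 30. Choroid plexus and meninges markers differed between these groups too, with medians of -0.72 and -1.08 against day 5 and -1.16 and -0.50 against day 30, and their part in these values was not tested.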

How the data were processed

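RNA of the right hippocampus was measured on 1-colour Agilent rat arrays, 1 array for each of 16 rats. The deposited files hold each spot's processed signal, an intensity that the authors' scanner software had already corrected for background, and Agilent Feature Extraction 9.5 is named in the submitters' processing notes. The authors' series table of the same intensity values equalled the processed signal on every array and was not otherwise used. Groups came from the sample titles. Here log2 of the deposited intensity minus each array's 75th percentile was taken with R 4.3.3. Control spots and spots marked as outliers were left out, spots of a probe were averaged, and probes above background on all arrays of the control or the Fe day 15 group were kept. RefSeq accessions named 15184 of 20378 probes that carried one, and the brightest probe stood for each of 2178 genes with several. Symbols of the other probes were not used here. A model of the 4 groups was fitted to all 16 arrays with limma 3.58.1 (12 residual degrees of freedom), with p-values adjusted by the Benjamini-Hochberg method over 27337 features, and was tested on simulated data. Each p-value is set by the spread among these rats, and precision is limited by having 4 arrays in a group. The members and lists were chosen with earlier results of these data known. Genes were named by rule. These were the 12 of lowest p and the 8 of largest non-overlapping difference on each side, the 4 of lowest p in each of 36 lists, and all members at an unadjusted p under 0.05 of the activity, stress, neurogenesis and lipid lists. Genes quoted beside them, such as Fos, Arc, Sgk1, Cd68 and Slc17a6, were chosen after their values were seen. Alternatives covered normalization, background, filter, probe choice, slide, replicate number, weights and each array left out. Some genes that the rule names are not reported here.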

Additional observations from a re-analysis of the deposited data

Results flagged for a closer look

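A value far from the other 3 arrays of its group (by Dixon's ratio at the 95% level) was found 38 times in 540 groups of 4 arrays, made of 36 list scores and 234 named genes in both groups. Chance gives such a value in about 1 in 20 groups.

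Fe replicate 4 held 18 of the 38. Its list scores were 1.15 for microglia, 1.02 for complement, 0.27 for neurogenesis, -0.18 for fatty acid synthesis and -0.045 for respiratory chain genes, where the nearest of the other 3 Fe arrays were at -0.17, 0.01, 0.10, 0.03 and 0.04. Its levels were high for C1qa (4.08), C1qb (4.5), the lysozyme Lyz2 (2.81), Cd68 (1.48) and the interferon-induced GTPase Gbp2 (1.9). They were low for Fads1 (1.94), Kcnd2 (1.57), Nrn1 (2.35), Herpud1 (1.69), Creld2 (-0.19), Dnajc3 (-0.18), Pnpla2 (-1.71) and Tjp1 (-1.28).

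Fe replicate 1 was high for Abat (1.01), Aldh1l1 (1.9) and the clock repressor Nr1d2 (-2.46), and low for Atp5f1b, a subunit of ATP synthase (4.33). Fe replicate 3 was low for Zscan25 (-5.09). Control replicate 1 was low for Abcg2 (-2.69), Lrp2 (-3.48) and Tgm1 (-5.61), so that these genes' differences are smaller against the other 3 controls. Control replicate 2 was high for Plk2 (2.46), the iron transporter Slc11a2 (1.49), Srebf2 (-0.18) and Unc13a (0.65), and low for the complement gene C2 (-0.90) and in the cytokine score (-0.06). Control replicate 3 was high for Nptx1 (4.23) and low for Ace (-5.22) and Zbtb16 (-1.49). Control replicate 4 was low for Cacna1a (-1.84), Dpysl3 (-1.60) and Lmod1 (-5.49).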

How the results depend on the processing

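Where 0 features were called (limma, adjusted p under 0.05), 2 were in a fit of both groups alone, 202 with array weights and 1 with no filter on dim probes. Leaving out 1 array called 0 to 10. The higher count at an unadjusted p under 0.05 (1412) was 1018 to 1546 and the lower count (1806) 1184 to 2145 with 1 array left out, and the higher count was 858 with normexp background correction. Quantile or median scaling, a stricter filter, marked spots and slide as a block or random block called 0. With the replicate number as a block, 1 was called, 1416 were higher and 1576 lower. Deviations of same-numbered arrays correlated at 0.148, 0.004, -0.014 and 0.215, where all 16 pairs of a control and an Fe day 15 array ranged from -0.198 to 0.215. So few values cannot decide whether same-numbered samples were paired. In alternatives chosen after seeing the data, 15 were called with position on the slide as a term (56% of those at an unadjusted p under 0.05 higher, against 43.9%) and 1 without 3 arrays of other groups high in choroid plexus and meninges markers.
 The sign turned for Mylk (0.0754) and Rpl13 (0.0261) with the mean over probes, for C1qb (-0.12), Cd68 (-0.32), Gbp2 (-0.25) and Lgals3 (-0.13) without Fe replicate 4 (ranges with 1 array left out -0.12 to 0.26, -0.32 to 0.98, -0.25 to 0.63 and -0.13 to 1.16), and for Ak7 (0.12), Alox15 (-0.76), Atf4 (-0.0602), Calr (0.22), Cd52 (-0.0626), Cldn1 (0.33), Cnp (-0.22), Cry1 (-0.0951), Cyp4f4 (0.17), Elovl1 (-0.0461), Enpp2 (-0.0774), Fdps (-0.12), Gabra5 (0.00264), Il16 (0.21), Klf4 (0.0669), Mag (-0.48), Nr1d2 (-0.0898), Pmvk (-0.12), Psma6 (-0.0424), Slc17a6 (-0.46), Slc27a2 (-1.27), Sv2a (-0.0769), Syt2 (-0.71) and Zscan25 (-0.84) with position as a term. The cause was not tested. List medians moved by less than their spread between arrays in 762 cases and by more in 30. Named genes kept their direction and their side of the threshold in 5077 cases, and passed it in 34. Leaving out 1 array turned the sign of the median in 18 of 36 lists, whose medians over all arrays lay between -0.05 and 0.28. Dimmer probes of Bcl2l1, Bhlhe22, C1ql3, Chordc1, Cpt1b, Il33, Osbp, Srebf2 and Tjp1 gave smaller differences of the same sign (0.26, -0.22, -0.20, 0.22, 0.23, -0.14, -0.05, -0.19 and -0.03), and one of Cx3cl1 a larger one (-0.58).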
